A study of Mus musculus with 11 samples.

Results

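The 6 cell cycle genes Ccnd1, Ccnd2, Ccna2, Cdk1, Mki67 and Top2a were examined in maps of 4 histone H3 methylation marks in mouse cardiomyocytes, the contracting muscle cells of the heart. The members are fixed mm9 windows around the genes, 169 kb in all, and every enriched stretch and every region of the comparison tables that touches a window was used. Each window met exactly 1 table region, so the set holds 6 of the 19265 regions that appear in at least 1 of the 12 tables. In mm9 these are chr7:152118800-152130999 for Ccnd1, chr6:127087200-127115799 for Ccnd2, chr3:36465400-36472003 for Ccna2, chr10:68802000-68816151 for Cdk1, chr7:142899000-142909399 for Mki67 and chr11:98880000-98887599 for Top2a. Left ventricular cardiomyocytes of 2-month-old mice (adult, labelled CMa) were set against cardiomyocytes of 1-day-old mice (neonatal, labelled CMp). The labels give no strain, genotype or treatment. The left ventricle is stated for adult cells and no chamber for neonatal ones, so age and heart region cannot be told apart. Both stages were also set against published mouse embryonic stem (mES) cell libraries, for which island positions and the authors' folds were used. The series holds 11 samples, made up of 3 inputs and 8 immunoprecipitations, with each mark measured in 1 library at each stage. By their labels, 1 input belongs to neonatal H3K4me3, 1 is a general neonatal input and 1 is the adult input. With 1 library per mark and stage there is no replicate error and no p-value, and each interval given covers counting error only.

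The cell cycle is driven by cyclins, which switch on cyclin-dependent kinases. The D-type cyclins, encoded by Ccnd1 and Ccnd2, respond to growth signals and act before DNA synthesis. Ccna2 encodes cyclin A2, active in DNA synthesis and before division, and Cdk1 encodes the kinase that drives entry into mitosis. Mki67 encodes the proliferation antigen Ki-67, which coats mitotic chromosomes, and Top2a encodes topoisomerase II alpha, which untangles replicated DNA. Mouse cardiomyocytes still divide around birth and largely leave the cell cycle in the following days. H3K4me3 marks active and poised promoters, and H3K79me2 is placed by the enzyme Dot1l on genes being transcribed, mostly near their starts. H3K27me3 is written by Polycomb complexes at repressed genes, and H3K9me3 is typical of heterochromatin. The marks are not a measure of RNA, so whether the genes were silenced after birth was not measured, and the data describe their chromatin.

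The promoters of Cdk1, Mki67 and Top2a are shown because at these 3 genes the H3K79me2 island that met the H3K4me3 island in neonatal cells had no counterpart there in adult cells. They are the 250 bases before the annotated start in RefSeq (GRCm38.p6, minus strand), at chr10:69352913-69353162 for Cdk1, chr7:135716380-135716629 for Mki67 and chr11:99024190-99024439 for Top2a. These positions belong to another build than the mm9 positions of the islands. Capitals mark 3 motifs known from promoters of cell cycle genes: the CCAAT box (CCAAT), the cell cycle genes homology region or CHR (TTTGAA), and an E2F core (TTGGCGC or TTCGCGC), each searched on both strands.
Cdk1: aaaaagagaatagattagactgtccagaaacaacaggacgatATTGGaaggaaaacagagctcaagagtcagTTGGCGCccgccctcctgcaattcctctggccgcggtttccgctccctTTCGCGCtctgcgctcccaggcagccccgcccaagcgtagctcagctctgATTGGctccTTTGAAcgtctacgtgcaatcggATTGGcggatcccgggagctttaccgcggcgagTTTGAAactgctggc
Mki67: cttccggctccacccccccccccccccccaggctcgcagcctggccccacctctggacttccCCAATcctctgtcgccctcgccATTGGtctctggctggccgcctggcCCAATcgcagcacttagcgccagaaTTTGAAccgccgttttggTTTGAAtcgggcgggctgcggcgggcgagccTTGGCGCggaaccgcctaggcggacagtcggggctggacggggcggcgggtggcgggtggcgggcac
Top2a: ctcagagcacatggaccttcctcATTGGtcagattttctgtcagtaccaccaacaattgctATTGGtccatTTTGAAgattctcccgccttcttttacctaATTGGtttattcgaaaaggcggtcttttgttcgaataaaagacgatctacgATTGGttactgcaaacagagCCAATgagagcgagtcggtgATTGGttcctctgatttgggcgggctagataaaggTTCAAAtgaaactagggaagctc

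The CCAAT box occurred at 3 sites in Cdk1, 3 in Mki67 and 6 in Top2a. The CHR occurred at 2 sites in each of the 3 promoters. The E2F core occurred at 2 sites in Cdk1 and 1 in Mki67, and these letters did not occur in the Top2a window. Of 32851 RefSeq promoters cut to the same length, 33.8% held the CCAAT letters, 16.0% the CHR letters, 5.55% both and 3.14% the E2F letters. No site overlapped another. The motifs were chosen with the sequences in view, and a match is a description of the letters and not a bound site. The other 3 members had no entry in the promoter table.

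Before the members are described, features of whole libraries that touch them are given. The authors' tables give the log2 of normalised reads. The lowest value in each library was taken as 1 read (the floor), and its whole multiples are called reads here. Whether control reads had been subtracted is not stated in the sources used here, so these values may not be raw counts. At Ccnd2 a called neonatal H3K27me3 island, chr6:127104800-127106199, lay inside a table region with a value of 1. A value at the floor therefore need not be 1 observed read, and intervals that use it treat it as 1. Between 5269 regions for H3K27me3 and 12641 for H3K79me2 passed the authors' threshold, a false discovery rate under 0.01, in the tables of adult against neonatal cells. The reads in those regions ranged from 461190 to 1909214 per library. A single region of very high pile-up, chr2:98502200-98507599, held 58.9% of them in neonatal H3K27me3, 58.7% in neonatal H3K9me3 and 14.8% in neonatal H3K79me2. Another, chr10:104053800-104055399, held 13.5% in adult H3K27me3, 11.2% in adult H3K9me3 and 10.4% in adult H3K4me3. The 6 member regions held 391 reads at 5 regions in adult and 277 at 6 regions in neonatal H3K4me3, and 776 in adult and 499 in neonatal H3K79me2. They held only 84 in adult and 5, at 5 regions, in neonatal H3K27me3. The files used here carry no gene names, so the cell type of the preparations was taken from the labels and not checked against marker genes.

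H3K79me2 split the members into 2 classes. It was higher in adult than in neonatal cardiomyocytes at both D-type cyclin genes and lower at Ccna2, Cdk1, Mki67 and Top2a, although the direction at Ccna2 turned when no library factor was applied. All 6 regions passed the authors' threshold for this mark, against 65.6% of the 19265 regions. The 4 regions lower in adult stand beside 30.2% of all regions, and the 2 higher beside 35.4%. Over the 6 members the median log2 difference, adult minus neonatal, was -1.18, and over the 12641 listed regions it was 0.69. The members ran from 5.98 to -2.16, and with no library factor their median was -0.18. Fewer cells that carry a mark and less of the mark per cell cannot be told apart in these bulk samples.

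Among the genes that act in DNA synthesis and mitosis, Mki67 had 60 H3K79me2 reads in adult and 134 in neonatal cells, in a region of 10.4 kb. After the authors' scaling this was 4.46-fold lower in adult cells (95% counting interval 3.27 to 6.16). Top2a had 41 reads in adult and 71 in neonatal cells, 3.46-fold lower in adult cells (2.32 to 5.22). Cdk1 had 126 reads in adult and 188 in neonatal cells, 2.98-fold lower (2.37 to 3.77). The smallest of these differences was at Ccna2, with 63 reads in adult and 54 in neonatal cells. Scaled reads in adult cells were 0.584 times those in neonatal cells (0.399 to 0.856), a log2 difference of -0.78, but 0.22 with no library factor, so its direction rests on the scaling. Without a factor the log2 differences were -1.16 at Mki67, -0.79 at Top2a and -0.58 at Cdk1, and the direction at these 3 genes stayed.

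Ccnd1 had 126 H3K79me2 reads in adult cells and 1 in neonatal cells, which is the floor of the table. The ratio of scaled reads was 63.0, with a counting interval of 11.1 to 2510 that takes the floor as 1 observed read. The size of this ratio is poorly fixed. Ccnd2 had 360 reads in adult and 51 in neonatal cells, 3.53-fold higher in adult cells (2.63 to 4.83). Over all regions listed as higher in adult cells for this mark, 58.1% had a neonatal value at the floor. At Ccnd1 the neonatal SICER list also had no H3K79me2 island.

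Per kb of region, the level of H3K79me2 put the members in a different order at the 2 stages. The regions differ in how they fit the islands of this mark, which limits comparison between genes. At Ccnd2 the region runs to 127115799, the end of an mES H3K27me3 island, and the largest adult H3K79me2 island ends at 127103399. At Ccnd1 the region starts at 152118800, so it holds little of the adult island chr7:152114800-152118999. The adult SICER list had no H3K79me2 island in the region of Mki67 or of Top2a, so their adult levels come from regions not called enriched. In adult cells Ccnd2 stood highest at 8.90 normalised reads per kb, followed by Ccnd1 at 7.31, Ccna2 at 6.75, Cdk1 at 6.30, Mki67 at 4.08 and Top2a at 3.82. The counting intervals of neighbours in this order overlapped, apart from Cdk1 (5.25 to 7.50) and Mki67 (3.11 to 5.25), which met only at their limits. In neonatal cells Cdk1 stood highest at 18.8, followed by Mki67 at 18.2, Top2a at 13.2, Ccna2 at 11.6, Ccnd2 at 2.52 and Ccnd1 at 0.116. There the intervals of Ccna2 (8.68 to 15.1), Ccnd2 (1.88 to 3.31) and Ccnd1 (0.00293 to 0.646) were apart from each other. The Ccnd1 interval takes the floor as 1 observed read. All 4 genes of DNA synthesis and mitosis stood above both D-type cyclin genes in neonatal cells, and both D-type cyclin genes stood above the 4 in adult cells, where the intervals of Ccnd1, Ccna2 and Cdk1 overlapped.

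**Figure D1:**
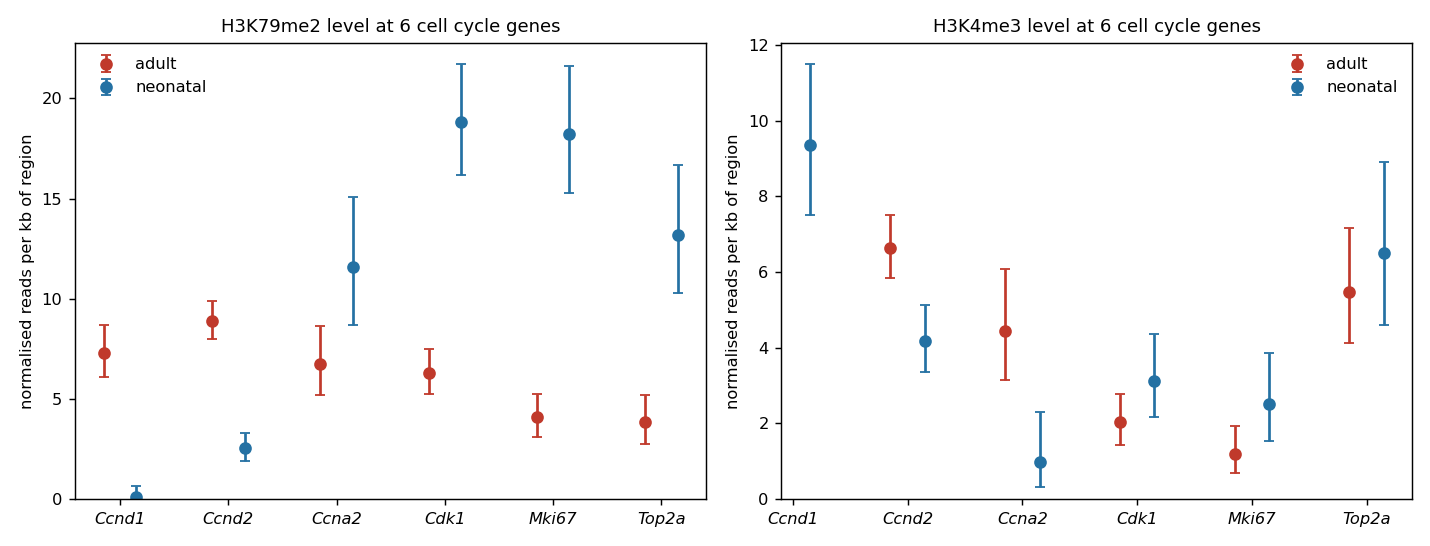
Normalised reads per kb of region for H3K79me2 (left) and H3K4me3 (right) at each gene, in adult (red) and neonatal (blue) cardiomyocytes. Points are 1 library each and bars are exact 95% Poisson intervals of the reads. The neonatal H3K79me2 value of Ccnd1 is the floor, taken as 1 read. Adult H3K79me2 lies between 3.82 and 8.90, while neonatal H3K79me2 runs from 0.116 at Ccnd1 to 18.8 at Cdk1. The adult H3K4me3 value of Ccnd1 is not listed in any table and is not drawn.

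The SICER islands, stretches that the authors' peak caller found enriched in each library on its own, showed where in the windows H3K79me2 lay. In neonatal cells an H3K79me2 island overlapped an H3K4me3 island in 5 of the 6 windows, all but Ccnd1. In adult cells this was so in 2 windows, Ccnd1 and Ccnd2, and in mES cells in all 6. Over all H3K4me3 islands, 54.3% in adult, 36.2% in neonatal and 45.0% in mES cells overlapped an H3K79me2 island. Of the neonatal H3K4me3 islands that overlapped H3K79me2, 22.8% met no adult H3K4me3 island with H3K79me2. Of the 5 windows where the marks met in neonatal cells, 4 had no such meeting in adult cells, namely Ccna2, Cdk1, Mki67 and Top2a. The set is named for genes silenced after birth, which these marks do not measure. At Ccnd1 and Ccnd2 the name has no backing in the marks, since in adult cells both had H3K4me3 and H3K79me2 islands that met. Cdk1 and Mki67 also had islands of both marks in adult cells, but these did not meet. The count depends on the caller, since the adult MACS list had an H3K79me2 region in 0 windows and the neonatal one in 3.

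The 4 genes differed in which island was missing. At Cdk1 the adult H3K79me2 islands were chr10:68802000-68806399 and chr10:68807200-68810999, and they ended 3400 bp short of the adult H3K4me3 island. The neonatal island, chr10:68803800-68815599, was 11.8 kb wide and ran across the whole neonatal H3K4me3 island. Its score of 264 was above that of 91.2% of the neonatal list.

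At Mki67 the adult H3K79me2 islands, chr7:142880000-142883399 and chr7:142890800-142894399, lay 12200 bp or more from the adult H3K4me3 island. The neonatal islands, chr7:142895400-142899599 and chr7:142900800-142907599, lay nearer to the H3K4me3 island, and the second overlapped it by 1800 bp. Neither of the adult islands shared a base with a neonatal one. Both adult islands lay outside the table region of Mki67, so the table reads of this gene do not include them.

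Top2a had no adult H3K79me2 island anywhere in its window of 40 kb, and a neonatal island of 5.20 kb at chr11:98880400-98885599. Ccna2 kept an adult H3K79me2 island of 2.20 kb at chr3:36468200-36470399, inside the neonatal one of 2.80 kb. Of the 8 neonatal H3K79me2 islands in the windows, 3 had no adult partner, against 11.5% of all neonatal H3K79me2 islands. These 3 belonged to Mki67 and Top2a. Of the 10 adult H3K79me2 islands in the windows, 5 had no neonatal partner, against 66.4% of all adult ones. The adult list of this mark held 60601 islands and the neonatal list 17899, so these islands were missing from the longer of the 2 lists.

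Ccnd2 gained most in length. Adult H3K79me2 islands covered 29.0 kb of its window, neonatal islands 10000 bp and the mES island 800 bp. The largest adult island, chr6:127087200-127103399, was 16.2 kb wide and its score of 342 was above that of 98.5% of the adult list. At Ccnd1 adult islands covered 9.80 kb, neonatal islands none, and mES islands 10.4 kb. Over all 6 windows H3K79me2 islands covered 33.3% in adult, 24.1% in neonatal and 31.7% in mES cells, and D-type cyclin windows held most of the adult length. The order of the stages turned with equal numbers of top islands, at 21.9% in adult and 24.1% in neonatal cells, and with MACS regions, at 0% in adult and 0.431% in neonatal cells.

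**Figure D2:**
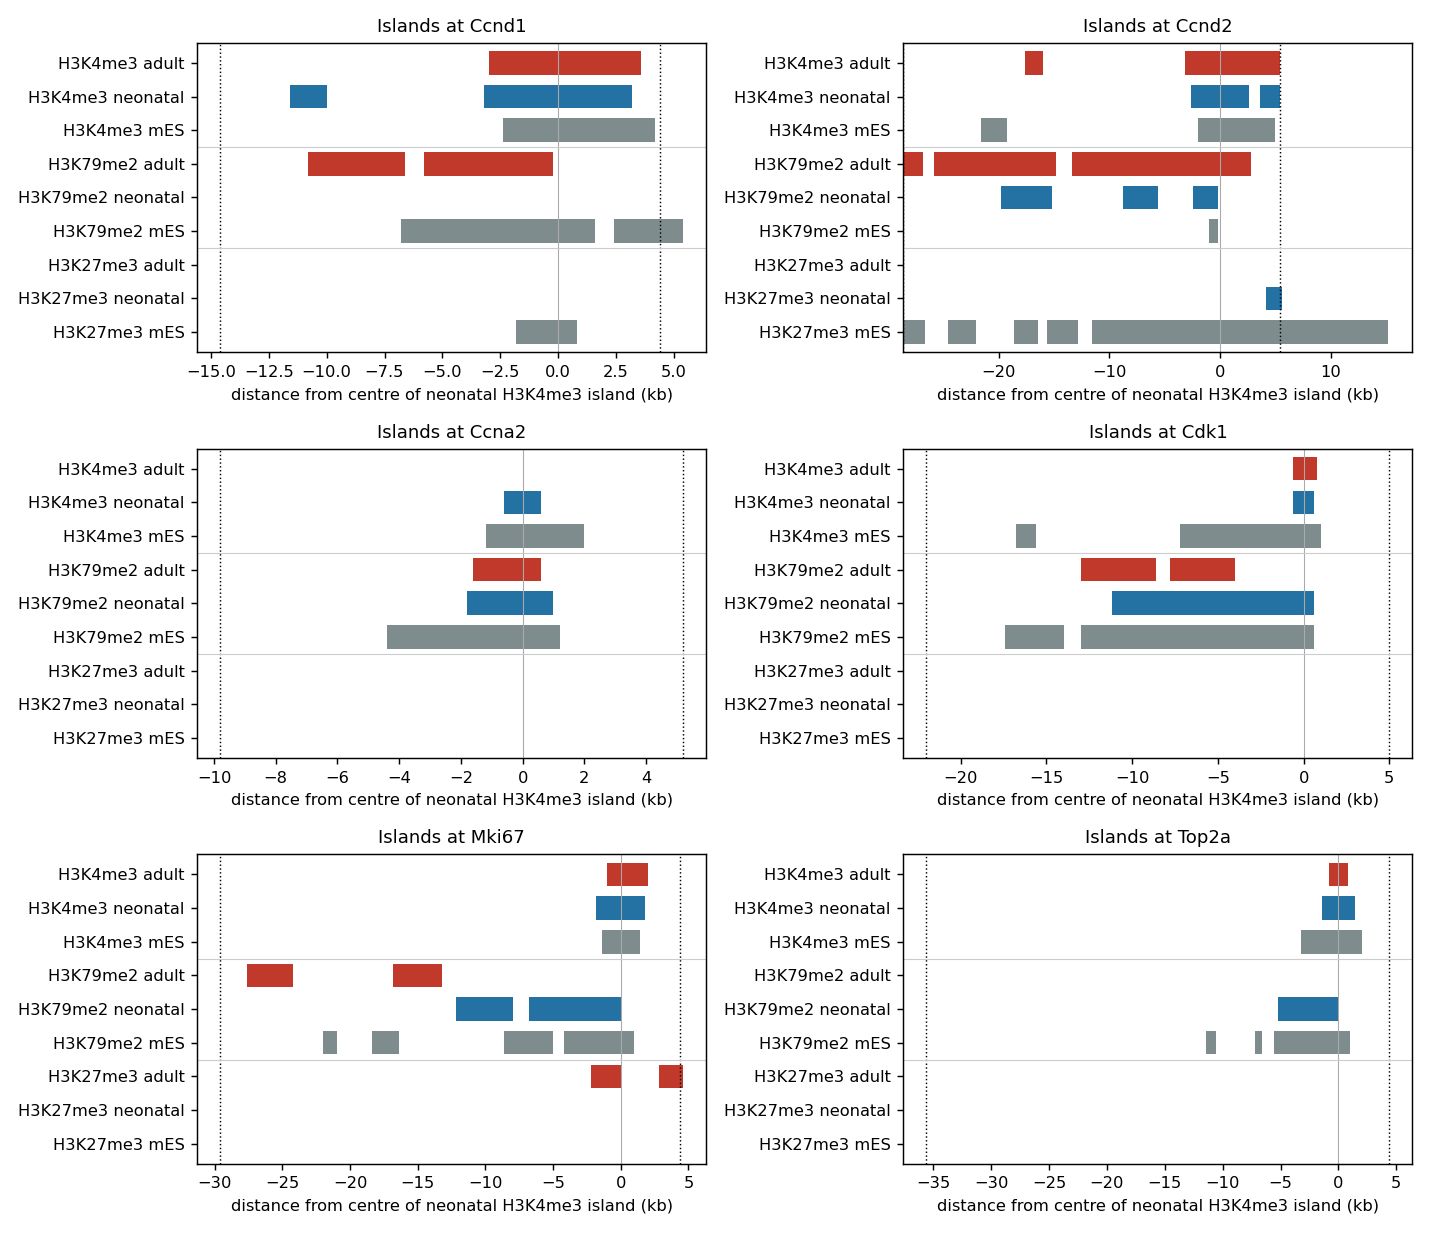
SICER islands of H3K4me3, H3K79me2 and H3K27me3 at each gene in adult (red), neonatal (blue) and mES (grey) cells, drawn as bars against the distance in kb from the centre of the neonatal H3K4me3 island with the highest score, with coordinates rising to the right. Dotted lines are the window ends. At Cdk1, Mki67 and Top2a the neonatal H3K79me2 bar reaches the H3K4me3 island, and the adult bars stop 3400 bp short, stop 12200 bp short, or are missing.

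H3K4me3 was present as an island in 5 of 6 windows in adult cells, and in all 6 in neonatal and in mES cells. The islands covered 22.8 kb in adult, 23.8 kb in neonatal and 36.6 kb in mES cells, which is 13.5% of the windows in adult, 14.1% in neonatal and 21.7% in mES cells. This near equality of the stages depends on the caller, since MACS regions covered 0.392% in 2 windows in adult and 5.6% in 6 windows in neonatal cells. Of the 6 adult islands in the windows 5 overlapped a neonatal one, against 56.8% of all adult islands, and of the 8 neonatal islands 6 overlapped an adult one, against 64.0% of all neonatal islands. Between the stages 3 of the 6 regions passed the authors' threshold, 2 as higher in adult and 1 as lower. Of all regions 54.0% passed it for this mark, 29.4% as higher and 24.6% as lower.

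Among the listed regions, Mki67 had 16 H3K4me3 reads in adult and 20 in neonatal cells, 2.10-fold lower in adult cells after scaling (1.04 to 4.34). Its log2 difference was -1.07, but -0.32 with no library factor and -1.81 centred on the table median. The direction stayed, while the size rests on the scaling. Ccnd2 had 246 reads in adult and 92 in neonatal cells, 1.59-fold higher in adult cells (1.25 to 2.04), a log2 difference of 0.67 that became -0.07 when the table was centred on its median of 0.74. Its adult island, chr6:127097400-127105999, was 8.60 kb wide and spanned both neonatal islands, of 5.20 and 1.80 kb. At Mki67 the H3K4me3 island was 3000 bp wide in adult and 3600 bp in neonatal cells.

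Cdk1 and Top2a were not listed between the stages, and their reads were taken from the tables against mES cells. Cdk1 had 37 H3K4me3 reads in adult and 34 in neonatal cells, a log2 difference of -0.63 after scaling with an interval of -1.34 to 0.09. Top2a had 54 in adult and 38 in neonatal cells, a log2 difference of -0.24 (-0.87 to 0.39). Both intervals span 0 with the authors' scaling, and both values depend on the scaling, in settings chosen after seeing the data. Centred on the table median, the log2 difference was -1.37 (-2.08 to -0.65) at Cdk1 and -0.98 (-1.61 to -0.34) at Top2a. With no library factor it was 0.12 (-0.59 to 0.84) at Cdk1 and 0.51 (-0.12 to 1.15) at Top2a, so neither a direction nor its absence is settled. H3K4me3 islands lay at both genes at both stages, 1400 bp wide in adult and 1200 bp in neonatal cells at Cdk1, and 1600 bp wide in adult and 2800 bp in neonatal cells at Top2a. In the same regions the log2 difference of H3K79me2, adult minus neonatal, was -1.58 (-1.91 to -1.24) at Cdk1 and -1.79 (-2.38 to -1.22) at Top2a.

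At Ccnd1 the H3K4me3 island was 6.60 kb wide in adult and 6.40 kb in neonatal cells. Its region had 88 neonatal reads, and no table listed it for the adult library, so no read ratio can be given. The scores of these islands stood above 98.6% of the adult list and 97.1% of the neonatal list.

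Ccna2 was the member at which the islands and the table gave opposite directions for H3K4me3. The table region held 38 reads in adult and 5 in neonatal cells, 4.51-fold higher in adult cells (1.77 to 14.7). The island list had no adult H3K4me3 island in the window, and had a neonatal one of 1200 bp at chr3:36469200-36470399, with a score above only 19.3% of its list. The table region, 6.60 kb wide, is longer than the island and holds all of it. The score of this neonatal island was 29, while the recovered value of the whole region was 5. What the score counts was not checked, and the recovered values may not be raw counts, so the size of the ratio is poorly fixed. Why the 2 measures differ was not tested.

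**Figure D3:**
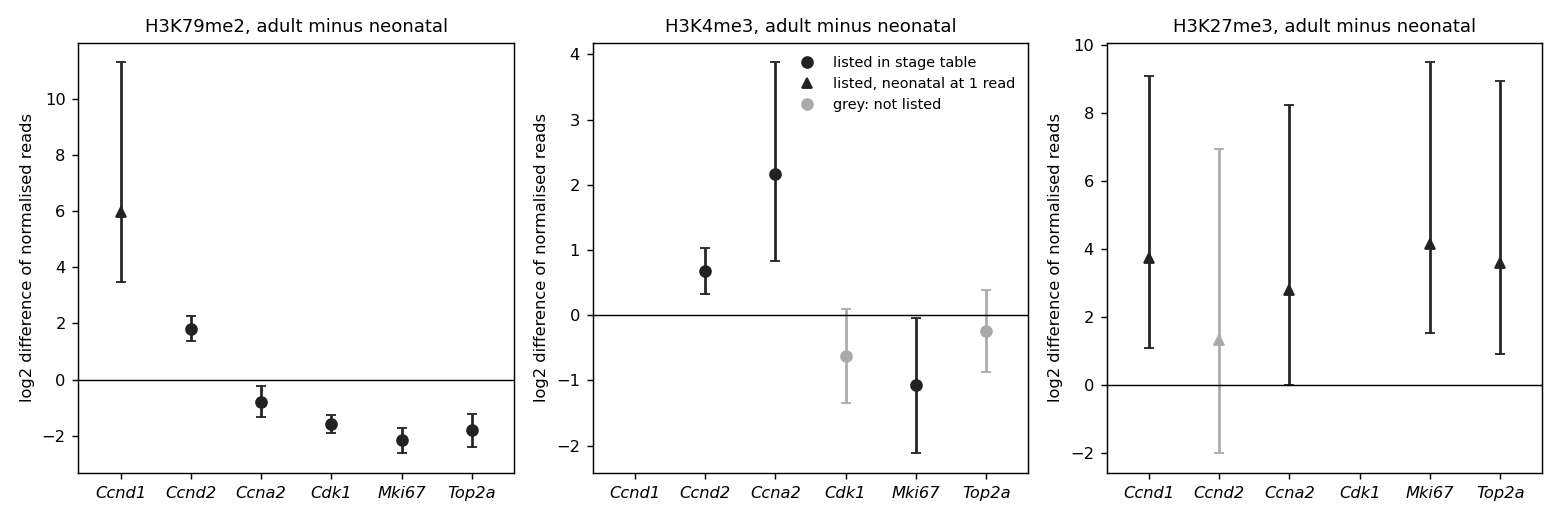
Log2 difference of normalised reads, adult minus neonatal, at each gene for H3K79me2, H3K4me3 and H3K27me3, with exact conditional binomial 95% intervals from 1 library per stage. Triangles mark a neonatal value at the floor, which the interval takes as 1 observed read, and grey marks a region not listed between the stages. H3K79me2 falls on both sides of 0, from 5.98 at Ccnd1 to -2.16 at Mki67, while the listed H3K27me3 values run from 2.79 to 4.14.

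H3K27me3 was higher in adult cells at the 4 of 6 regions that were listed, although the direction at Ccna2 turned when the table was centred on its median. Of these 4 genes only Mki67 had an adult H3K27me3 island. At Ccnd1, Top2a and Ccna2 no H3K27me3 island was called in adult or neonatal cells. Of all regions 27.4% were listed for this mark, 19.8% as higher and 7.53% as lower. The neonatal value stood at the floor of 1 read at each of the 4, and the intervals given here take it as observed. Adult reads numbered 28 at Mki67, 21 at Ccnd1, 19 at Top2a and 11 at Ccna2. The scaled ratios were 17.6 (2.91 to 719) at Mki67, 13.2 (2.12 to 545) at Ccnd1, 11.9 (1.90 to 496) at Top2a and 6.91 (1.00 to 297) at Ccna2. The whole table leaned the same way, since its median log2 difference was 2.91 and 81.8% of its higher regions had a neonatal value at the floor. Centred on that median the log2 differences were 1.22, 0.81 and 0.66 at Mki67, Ccnd1 and Top2a, and -0.13 at Ccna2, where the direction turned.

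Mki67 was the one member with an H3K27me3 island in adult cells. Its islands were chr7:142905400-142907599, 2.20 kb wide, and chr7:142910400-142912199, 1.80 kb wide, and the first overlapped the adult H3K4me3 island chr7:142906600-142909599. The second of these adult islands lay outside the table region of Mki67, so the table reads of this gene do not include it. The calls depend on the caller, since the adult MACS list had an H3K27me3 region in 0 windows. No neonatal or mES H3K27me3 island lay in the Mki67 window, and 71.5% of all adult H3K27me3 islands likewise overlapped no neonatal one. Over all adult H3K4me3 islands 16.8% overlapped H3K27me3, and the scores of the 2 islands were above 52.2% and 22.1% of the adult list. With the libraries scaled without regions that held over 1% of reads, a setting chosen after seeing the data, the log2 difference of the Mki67 region was 3.33, against 4.14 with the authors' scaling.

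At Ccnd2 the neonatal list had 1 H3K27me3 island of 1400 bp, chr6:127104800-127106199, which overlapped a neonatal H3K4me3 island, and the adult list had none. Of all neonatal H3K27me3 islands 56.6% overlapped no adult one, and 13.0% of neonatal H3K4me3 islands overlapped H3K27me3. The score of the Ccnd2 island was above only 6.84% of the neonatal list. The table region of Ccnd2 had 4 H3K27me3 reads in adult and 1 in neonatal cells and was not listed between the stages. In mES cells 5 H3K27me3 islands lay in the window, the widest of 26.8 kb at chr6:127089000-127115799.

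No SICER island of H3K9me3 touched any of the windows in adult, neonatal or mES cells. The table listed Ccna2, with 20 H3K9me3 reads in adult and 9 in neonatal cells, 2.44-fold higher in adult cells (1.06 to 6.09). It also listed Mki67, with 1 read in adult cells, the floor, and 21 in neonatal cells, a scaled ratio of 0.0523 (0.00127 to 0.325). That interval takes the floor as 1 observed read. These 2 of 6 regions, 1 higher and 1 lower, stand beside 50.3% of all regions listed for H3K9me3, 24.8% higher and 25.4% lower. With no island at either stage, these are differences in regions that were not called enriched for this mark.

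Against mES cells, which divide rapidly in culture, Ccnd2 stood apart from the other 5 genes. According to the authors' deposited table its H3K79me2 log2 fold was 7.46 in adult and 5.61 in neonatal cardiomyocytes, and its H3K4me3 log2 fold was 1.72 in adult and 1.18 in neonatal cells. Both H3K79me2 folds rest on an mES value at the lowest of its table, as implied by the fold and the cardiomyocyte value, so their size is poorly fixed. Its H3K27me3 log2 fold in the authors' deposited table was -5.21 in adult cells, from 4 reads, and -5.93 in neonatal cells, from 1 read, the floor. In mES cells the H3K79me2 island of Ccnd2, 800 bp wide, lay inside wider H3K4me3 and H3K27me3 islands.

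For H3K79me2 the authors' deposited table listed all 6 genes at both stages, Ccnd2 as higher and the other 5 as lower than in mES cells. Of all regions 72.0% were listed for adult cells, 40.4% as higher and 31.5% as lower. For neonatal cells 57.2% were listed, 27.1% as higher and 30.0% as lower. The log2 folds there were -3.75 in adult and -2.19 in neonatal cells at Cdk1, -3.53 in adult and -1.77 in neonatal cells at Top2a, -3.14 in adult and -1.0 in neonatal cells at Mki67, and -2.15 in adult and -1.40 in neonatal cells at Ccna2. At Ccnd1 the authors' deposited table gave -1.48 in adult and -7.48 in neonatal cells, where the neonatal library was at the floor of 1 read. Both comparisons share the mES reads, so the folds are set side by side only. The mES reads for H3K79me2 came from another data set than those for the other marks, per the deposited description of the tables.

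For H3K4me3 the authors' deposited table gave lower values than in mES cells at Cdk1, Mki67, Top2a and Ccna2 at both stages. Of all regions 66.8% were listed for adult cells, 33.2% as higher and 33.7% as lower, and 60.6% were listed for neonatal cells, 30.0% as higher and 30.6% as lower. The log2 folds there were -2.52 in adult and -1.33 in neonatal cells at Mki67, -1.82 in adult and -1.07 in neonatal cells at Cdk1, -1.14 in adult and -0.77 in neonatal cells at Top2a, and -1.32 in adult and -3.37 in neonatal cells at Ccna2. Ccnd1 was listed against mES cells for the neonatal library only, with a log2 fold of -0.32 in the authors' deposited table that became 0.09 after centring.

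For H3K27me3 the authors' deposited table listed 5 regions for adult cells, 3 higher and 2 lower than in mES cells, against 53.1% of all regions listed, 26.9% as higher and 26.2% as lower. The log2 folds there were 3.27 at Mki67, 2.72 at Top2a and 2.19 at Ccna2, and -3.31 at Cdk1 and -5.21 at Ccnd2. In neonatal cells the authors' deposited table listed 2 regions, Ccnd1 at -2.69 and Ccnd2 at -5.93, both lower and both with the neonatal library at the floor of 1 read, beside 32.2% of all regions listed and 16.4% listed as lower. Cdk1 had 1 adult H3K27me3 read, the floor, and no H3K27me3 island in adult, neonatal or mES cells.

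For H3K9me3 the authors' deposited table gave, for adult cells, log2 folds against mES cells of 1.78 at Ccna2, -3.54 at Mki67 and -4.76 at Cdk1, beside 50.4% of all regions listed, 25.8% as higher and 24.6% as lower. For neonatal cells the authors' deposited table gave -0.92 at Ccnd2, -3.32 at Top2a and -3.37 at Cdk1, beside 47.7% of all regions listed, 24.0% as higher and 23.7% as lower. The adult value at Cdk1 and Mki67 and the neonatal value at Top2a stood at the floor of 1 read.

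**Figure D4:**
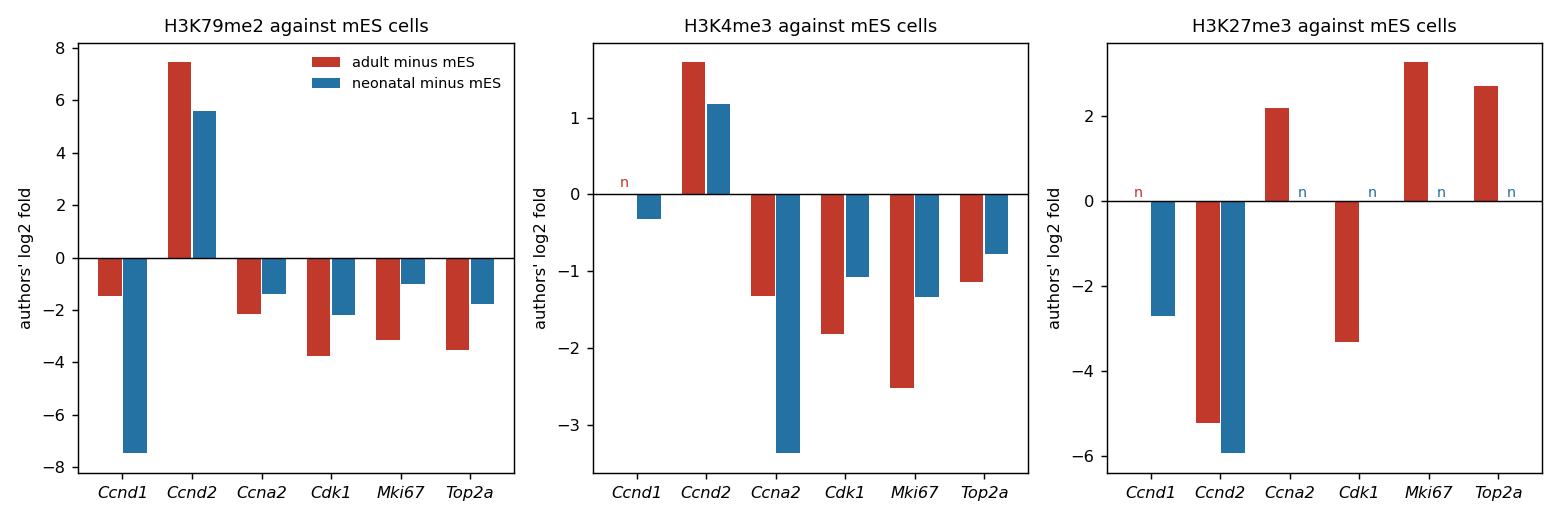
The authors' log2 folds, cardiomyocyte minus mES, at each gene for H3K79me2, H3K4me3 and H3K27me3, with adult (red) to the left of neonatal (blue) and n where a region was not listed. Ccnd2 is the gene with positive H3K79me2 bars, 7.46 and 5.61, and with the longest negative H3K27me3 bars, -5.21 and -5.93.

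Some windows hold more than the named gene. In the RefSeq table (GRCm38.p6) LTO1 overlaps Ccnd1, the long noncoding RNA 9330179D12Rik overlaps Ccnd2, Exosc9 overlaps Ccna2, and a small nucleolar RNA overlaps Top2a, and signal of these genes cannot be told apart from that of the members where they overlap. No gene overlaps Cdk1 or Mki67 in that table, but within 10 kb lie Bbs7 beside Ccna2, 4930423B08Rik beside Cdk1, Ptpre beside Mki67 and Gjd3 beside Top2a. Each window is longer than its gene, for instance 34 kb against 26667 bp at Mki67 and 27 kb against 17767 bp at Cdk1, and which islands belong to neighbours was not tested.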

How the data were processed

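The submitters' processing notes name build mm9 and the tools Bowtie (0.12.8), DiffBind (1.2.0), MACS (1.4.2) and SICER (1.1). The authors deposited SICER and MACS lists with a score per region, called per sample. The score was used only to rank or filter within a list. They deposited 12 DiffBind tables of log2 normalised reads, log2 folds (turned here to adult minus neonatal and cardiomyocyte minus mES) and false discovery rates (adjusted p-values), made pairwise with default settings at a rate under 0.01, per the deposited description. Whether control reads were subtracted is not stated there. Positions are mm9 as deposited, end base included. Total reads per library were not used here, so depth is known only as reads in listed regions.

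Unlogged values divided by the lowest of their column were whole numbers for 100% of values (tolerance 0.01). They were taken as reads, though they may not be raw counts. The same region had equal reads in 100% of regions shared between tables of a library, so reads of regions missing from a stage table were taken from the mES tables. Scaled ratios used the authors' factors, in adult and neonatal libraries 0.771 and 1.30 for H3K4me3, then 0.707 and 1.41 for H3K79me2, 0.792 and 1.26 for H3K27me3, and lastly 1.05 and 0.954 for H3K9me3. Ratios have exact conditional binomial 95% intervals. Levels have exact Poisson intervals. Reads without molecular identifiers are not independent molecules, and intervals cover counting error only. The intervals take the recovered values as counts and the floor as 1 observed read. The 8 columns of mES values were not used. Overlap means at least 1 bp. Code was tested on simulated data, with Python 3.11.15 and scipy 1.17.1. All 6 members are named. Members, lists and motifs were chosen with earlier results of these data known. The lists of other cell cycle genes and of cell type markers needed gene positions in mm9 and were not used here.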

Additional observations from a re-analysis of the deposited data

How the results depend on the processing

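Of 331 values recomputed under an alternative, 7 reversed, 76 moved past a tolerance and 248 stayed within it, and the causes were not tested. The tolerance was 1.5 times for a count, the 95% counting interval for a gene's log2 difference between the stages, the 95% binomial interval for a share, and 1 SD over the members for a median or a fold against mES cells, so values within it still changed in size. With 1 library per mark and stage no replicate was left out. No paired analysis was possible because each group holds 1 sample. Requiring at least 50% of an island, or of a table region, inside the window moved none of 24 values in either case. With MACS regions in place of SICER islands, windows with a region numbered 2 in adult and 6 in neonatal cells for H3K4me3, 0 in adult and 3 in neonatal cells for H3K79me2, and 0 in adult, 0 in neonatal and 1 in mES cells for H3K27me3. They covered 0.392% of the windows in adult, 5.6% in neonatal and 11.7% in mES cells for H3K4me3, 0% in adult, 0.431% in neonatal and 14.3% in mES cells for H3K79me2, and 0% in adult, 0% in neonatal and 4.50% in mES cells for H3K27me3. With islands at or above the list's median score, H3K4me3 covered 11.7% in adult and 11.7% in neonatal cells, H3K79me2 24.5% in 3 windows in adult and 14.1% in 3 windows in neonatal cells, and H3K27me3 1.30% in adult and 0% in 0 windows in neonatal cells. With equal numbers of top islands, H3K79me2 covered 21.9% in 2 windows in adult and 24.1% in 5 windows in neonatal cells, and adult H3K27me3 1.30%. With windows 5 kb longer at both ends, H3K4me3 covered 10.1% in adult, 10.4% in neonatal and 16.9% in mES cells, H3K79me2 26.1% in adult, 17.8% in neonatal and 24.2% in mES cells, H3K27me3 1.75% in adult, 0.611% in neonatal and 15.5% in mES cells, and H3K9me3 0.175% in 1 window in mES cells.

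With no library factor the H3K79me2 log2 difference was 0.22 at Ccna2 and the median -0.18, with 3 regions higher and 3 lower. The H3K4me3 log2 difference was then 0.12 at Cdk1 and 0.51 at Top2a, with a median of 1.42, and the H3K27me3 median was 4.32. Removing the factor shifted all regions by 0.75 for H3K4me3, 1.00 for H3K79me2, 0.67 for H3K27me3 and -0.14 for H3K9me3. Centred on the table median, the log2 difference was -0.07 at Ccnd2 and in the median for H3K4me3, with 1 region higher and 2 lower in adult cells. Centring gave -0.13 at Ccna2 and a median of 0.74 for H3K27me3, with 1 region lower, and 0.09 at Ccnd1 for H3K4me3 in neonatal against mES cells, with 2 regions higher. Scaled without high pile-up regions, chosen after seeing the data, the H3K27me3 median was 2.85. With a false discovery rate under 0.0001 the count was 0 for H3K4me3 lower in adult, 0 for H3K9me3 higher in adult than in neonatal and than in mES cells, 1 for H3K9me3 lower in neonatal than in mES cells, and 1 for H3K27me3 lower in neonatal than in mES cells. With at least 2-fold change, 1 region was higher in adult and 3 lower in neonatal than in mES cells for H3K4me3. Above the floor at both stages, 1 region was higher in adult for H3K79me2, 0 for H3K27me3, and 0 lower for H3K9me3. Counting a region only where the higher stage also had an island, 1 was higher in adult for H3K4me3, 1 for H3K27me3, and 0 higher and 0 lower for H3K9me3.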
